A study of Drosophila melanogaster with 24 samples.

Results

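The cytoplasmic ribosome is built from a large and a small subunit, each a scaffold of ribosomal RNA covered by ribosomal proteins. Their genes are among the most strongly transcribed of a growing cell, and balanced output matters: in Drosophila, loss of 1 copy of many of them gives the Minute phenotype of slow growth and short bristles. Fly ribosomal protein genes start at an unusual pyrimidine-rich initiator and use Trf2, a relative of the TATA-binding protein. Several have a second copy (a paralogue) with a narrow pattern, often in the germline.

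The genes described here are those whose symbol on the array starts with RpL or RpS and a digit, without RpS5a, RpS5b, RpS10a and RpS10b. Where several probe sets named a gene, the brightest one stood for it. The rule found 35 genes, 21 of the large and 14 of the small subunit, of 11982 genes with a probe set annotated to them alone. For 14 of the 35, RpS18 among them, the name of the probe set ends in _s_at. Matches of the probes to other transcripts were not examined. The RefSeq table holds 84 genes with such a symbol, so the 35 are a sample of the ribosome and not the whole of it. They lie on 5 chromosome arms in that table (8 on 2L, 8 on 2R, 4 on 3L, 12 on 3R and 3 on X). The rule picks genes by symbol, but the members were chosen with earlier results of these data known. Of the 4 paralogues it leaves out, 2 were measured and both were called in at least 1 comparison. RpS5b was called in the mixes with the S2-Dl line (log2 change 3.48 in S2/S2-Dl against S2/S2). RpS10a was called in S2-NFull/S2 (2.60 against S2/S2). The 0 calls below thus rest in part on leaving these 2 out. The counts below describe the 35 genes and not every ribosomal protein gene on the array.

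The study mixed cell populations for 45 minutes and hybridised the RNA of each mix to an Affymetrix array, with 2 independent samples pooled per replicate. All populations derive from S2, a phagocytic, blood-cell-like line of Drosophila. S2-Dl carries Delta, the ligand of the receptor Notch. S2-DlDI carries Delta without its intracellular domain. The names S2-NFull and S2-NDCterm are taken to stand for lines with 2 forms of Notch, although the labels do not spell them out. The sources used here give neither the promoters nor whether a line is 1 clone. The 15 samples compared were 1 of S2-NFull/S2-Dl, 1 of S2-NFull/S2-DlDI (2 arrays averaged), 1 of S2-NFull/S2, 2 of S2-NDCterm/S2-Dl, 2 of S2/S2-NDCterm, 3 of S2/S2-Dl, 2 of S2/S2-DlDI and 3 of S2/S2. Each RNA sample held the transcripts of both populations, so constitutive output of 1 line cannot be told apart from an answer to contact, nor fewer cells of a line from less RNA per cell.

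The Delta probe set read 11070 to 12968 in the 6 samples with S2-Dl, against 3.35 to 41.3 in the 9 others. The truncated Delta did not register on it, so it is no check of the S2-DlDI label. The labels of all 24 arrays name late embryonic epidermal tissue beside the S2 lines. Yet 0 of 10 epidermis markers passed a signal of 100 in S2/S2 (median 9.36), while 7 of 11 plasmatocyte markers did (median 287). Signals are linear brightness values that the authors scaled to a common mean. Brightness depends on the probes, so levels of different genes are described and not tested against each other.

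The members fell into 3 ranges of brightness. A bright range of 26 genes, 15 large and 11 small subunit, stayed above 5000 on every one of the 24 arrays. A middle range of 3 genes (RpL24-like, RpL34a and RpL7-like) stayed above 1000, and 6 dim genes lay below. Together the 35 made up 5.69 to 6.89% of the summed signal of an array, with a median of 5.88%.

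The 5 members with the highest mean signal in S2/S2 were RpL41, a very short basic peptide at the subunit interface, at 13504 ± 1306, RpS26, near the exit of the mRNA channel, at 13458 ± 1076, RpS18, in the head of the small subunit, at 13227 ± 1209, RpS28b at 12795 ± 1672 and RpL39, which lines the peptide exit tunnel, at 12640 ± 1836 (SD, n = 3). RpS18 was the brightest of all 18769 probe sets on at least 1 array and ranked no lower than 24 on any, and RpL41 ranked between 3 and 17. RpL32 (rp49), long a standard for RNA amount in fly work, lay between 10617 and 14149 over all 24 arrays. The lowest-ranked bright member, RpL17, still ranked 129 or better. The brightest probe set of an array read 13384.5 to 21458.6, so several members lie near the top of the scale, where brightness can flatten; its part in the results was not tested.

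The bright members include the fusion genes. RpS27A and RpL40 are made joined to ubiquitin, and RpS30 to a ubiquitin-like protein. In S2/S2 they averaged 12431 ± 1248, 8155 ± 858 and 10938 ± 1413 (SD, n = 3). RpS21, whose loss in larvae overgrows the blood-forming organs, averaged 11083 ± 1461.

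Paralogues split between the ranges. RpL10Ab read 7845 to 10962 over the 24 arrays while RpL10Aa read 1.85 to 12.6. RpL37-1 read 9546 to 14002 and RpL37-2 13.4 to 54.7. RpS28b read 10849 to 15591, RpS28a 5.44 to 54.7 and RpS28-like 0.947 to 17.9. In each family 1 gene was in the bright range and the others were dim. RpL22-like, a testis-enriched relative of RpL22, read 0.728 to 31.3, and RpS19b, known from the ovarian germline, 60.4 to 289. RpL10Aa, RpS28-like, RpL22-like, RpL37-2 and RpS28a had the 5 lowest means in S2/S2 (5.12, 7.22, 9.14, 26.7 and 31.6), so a change of theirs depends on the offset of 32 added before the log. Of 5 germline markers, 1 passed a signal of 100 in S2/S2 (aub, 634).

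The widest variation of the bright members was one that whole samples shared. The median bright member read 12527, 11507 and 10729.9 in replicates 1 to 3 of S2/S2-Dl, against 12778, 10221 and 11439 in those of S2/S2. In S2/S2, replicate 1 was the highest and replicate 2 the lowest for 26 of 26 genes. In S2/S2-Dl, replicate 1 was the highest for 26 of 26 and replicate 3 the lowest for 23.

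**Figure D1:**
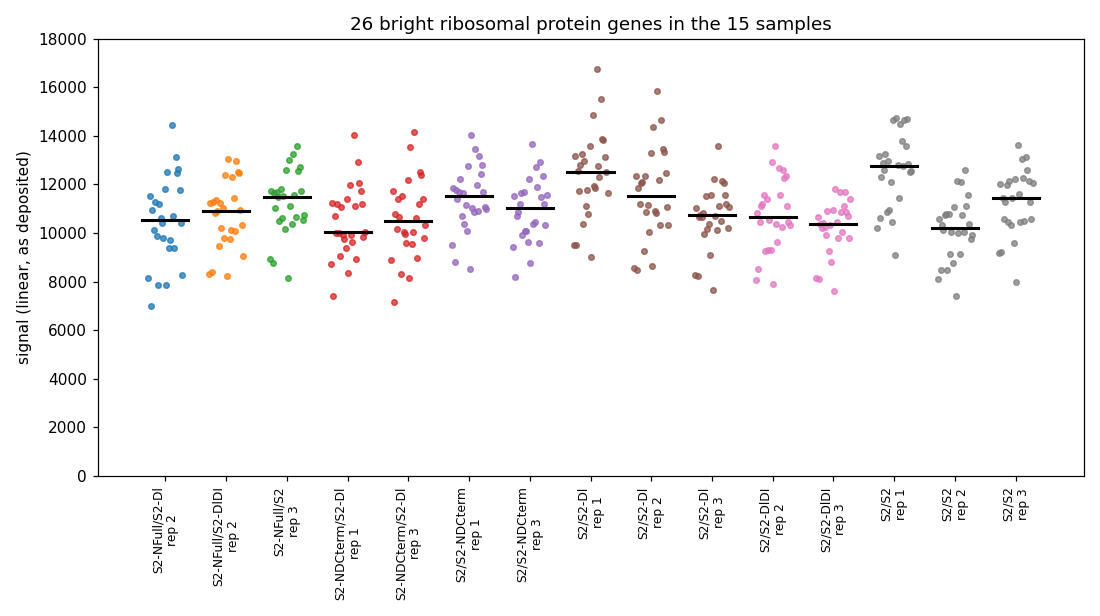
Signal (linear, as deposited) of the 26 bright ribosomal protein genes in the 15 samples. Each point is a gene, in alphabetical order from left to right within a sample, and the black line is the sample's median. The whole cloud moves up or down from sample to sample, with medians from 10024 in S2-NDCterm/S2-Dl replicate 1 to 12778 in S2/S2 replicate 1.

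The remaining medians were 10522 in S2-NFull/S2-Dl, 10920.0 in S2-NFull/S2-DlDI and 11494 in S2-NFull/S2. The S2-NDCterm/S2-Dl samples had 10024 and 10479, those of S2/S2-NDCterm 11524 and 11025, and those of S2/S2-DlDI 10666 and 10381. Every one of these lies inside the range of the S2/S2 samples, except that of S2-NDCterm/S2-Dl replicate 1, which is lower.

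On the log2 scale the median bright member had an SD of 0.11 between samples of a mix and an SD of 0.07 between the means of the mixes. Means of several samples spread less than single samples do, so these 2 values are not directly comparable. Of the variance of the bright members within mixes, 81.9% was common to all of them in a sample. After quantile normalization, which forces the arrays to one distribution, 3.35% was, and the SD within mixes was 0.02. The median signal of all probe sets on an array ran from 9.82 to 20.9, the last being S2/S2 replicate 2, the sample with the lowest bright members in its mix; its part in the shared shift was not tested.

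Gene by gene, the SD within mixes of the bright members was 0.08 to 0.15 on the log2 scale, with a median of 0.11. In 3 of the 26 the mix means spread wider than samples of a mix: RpL17 (0.14 against 0.11), RpL3 (0.14 against 0.12), a protein that reaches the peptidyl transferase centre, and RpS7 (0.17 against 0.12). RpL34a (0.22 against 0.12) and the dim RpL22-like (0.27 against 0.14) did so too, which makes 5 of 35. Since means of several samples spread less than single samples, these counts are no test of differences between mixes. The share over all genes is not given here.

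Did cells with full-length Delta change ribosomal protein transcripts of plain S2 cells? In S2/S2-Dl against S2/S2 (n = 3 each), 0 of 35 members were called by limma at an adjusted p below 0.05, and 0 had an unadjusted p below 0.05, against 13.5% of all genes. Over all probe sets 1.31% were called, at which share 35 genes would hold under 1 call, so the count of 0 calls does not set the members apart. The shares called in the other comparisons were smaller still. The members' log2 changes had a median of 0.03, with 21 of 35 above 0, against a median of -0.05 over all genes. After quantile normalization the median was -0.01, with 14 of 35 above 0. For the 26 bright members the 95% intervals reached from 0.779-fold to 1.40-fold, so changes beyond these sizes lie outside every interval. In 0 members did the samples of the mixes fail to overlap, in either direction (5.6% of probe sets were apart upward and 8.45% downward).

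RpS18 had the largest positive change of a bright member. It read 16744, 15844 and 13599 in S2/S2-Dl, against 14509, 12109 and 13063 in S2/S2. The ranges overlap, since the lowest S2/S2-Dl sample is below the highest S2/S2 sample. The log2 change was 0.22 ± 0.13 (SE; limma adjusted p = 0.532). RpS19b gave 0.26 ± 0.32 and RpL22-like 0.20 ± 0.14. The 3 most negative values were those of the middle range: RpL24-like (-0.27 ± 0.15), RpL7-like (-0.25 ± 0.20) and RpL34a (-0.16 ± 0.11).

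With truncated Delta in its place (S2/S2-DlDI against S2/S2, n = 2 and 3), 0 of 35 members were called by limma (0.0746% of all probe sets were), and 1, RpL24-like, had an unadjusted p below 0.05, against 8.59% of all genes. All 35 changes were below 0, with a median of -0.12, while 37.5% of all genes were above 0 and their median was -0.05. The bright members' intervals reached from 0.706-fold to 1.20-fold. The median bright member, at 10666 and 10381 in S2/S2-DlDI, lay below S2/S2 replicates 1 and 3 and above replicate 2. After quantile normalization 7 of the 26 bright members were above 0 with a median of -0.02. The most negative values were RpS19b (-0.50 ± 0.36), RpL24-like and RpL7-like (-0.23 ± 0.22), and the least negative RpL3 (-0.04 ± 0.14), RpS27A (-0.05 ± 0.14) and RpL10Aa (-0.05 ± 0.11). Samples of the mixes were apart, downward, for 3 members (RpL24-like, RpL37-2 and RpS28-like), against 14.3% of probe sets, and upward for 0, against 7.05%.

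RpL24-like resembles yeast Rlp24, a factor that holds the place of a ribosomal protein while the large subunit is assembled. It read 2299 and 1823 in S2/S2-DlDI, against 3463, 2705 and 2422 in S2/S2. Both S2/S2-DlDI samples lie below all 3 of S2/S2. The log2 change was -0.46 ± 0.17 (limma adjusted p = 0.582), which did not pass the test.

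Full was then set against truncated Delta (S2/S2-Dl against S2/S2-DlDI, n = 3 and 2). These are different lines, so a difference cannot be assigned to the intracellular domain alone. By limma 0 of 35 members were called, against 0.639% of probe sets, and 1, RpS18, had an unadjusted p below 0.05, against 9.87% of all genes. The median change was 0.14, with 32 of 35 above 0, against 0.01 over all genes. For 13 members, 10 of them bright, every S2/S2-Dl sample was above both S2/S2-DlDI samples, where 14.6% of probe sets were; 0 members were apart downward, against 12% of probe sets. The members shift together from sample to sample, so such counts are not of independent genes. After quantile normalization the bright members' median was 0.02 with 18 of 26 above 0.

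RpS18 read 16744, 15844 and 13599 in S2/S2-Dl, against 12692 and 11709 in S2/S2-DlDI. The mixes do not overlap. The log2 change was 0.33 ± 0.14 (limma adjusted p = 0.521). RpS19b gave 0.77 ± 0.36 and RpL22-like 0.31 ± 0.16, and the lowest values were RpS28a (-0.06 ± 0.28), RpL34a (-0.02 ± 0.12) and RpL7-like (-0.02 ± 0.22). The 3 comparisons so far share samples, so their values are not independent.

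**Figure D2:**
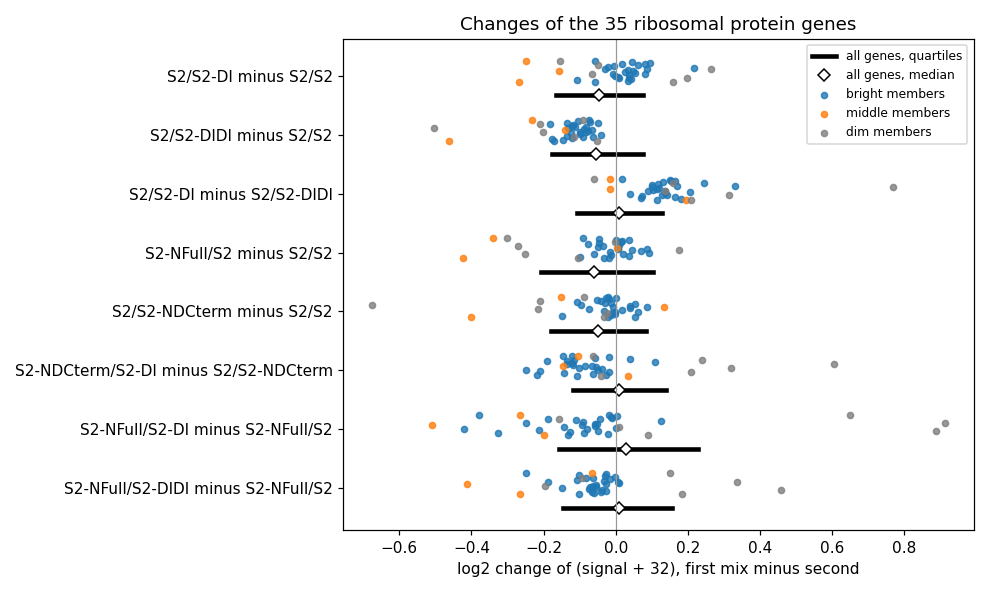
Log2 change of signal plus 32, first mix minus second, for the 35 ribosomal protein genes in the 8 pairwise comparisons. Each point is a gene, coloured by brightness range, and below each row the bar gives the quartiles of all genes with their median as a diamond. The bright genes form tight clouds that shift as a block, from a median of -0.12 for all members in S2/S2-DlDI minus S2/S2 to 0.14 in S2/S2-Dl minus S2/S2-DlDI, and dim genes scatter widest.

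The Notch lines were first set against plain S2 without ligand. In S2-NFull/S2 against S2/S2 (n = 1 and 3) limma called 0 of 35 members and 0 had an unadjusted p below 0.05 (0.181% of probe sets were called, and 7.48% of all genes had such a p). A lone sample is assumed to vary as the other mixes do. The median change was -0.01, with 16 of 35 above 0, against -0.06 over all genes, and the bright members' intervals reached from 0.726-fold to 1.38-fold. RpL24-like (-0.42 ± 0.22), RpL7-like (-0.34 ± 0.28) and RpS28a (-0.30 ± 0.36) were the most negative, and RpL37-2 (0.17 ± 0.26), RpL3 (0.09 ± 0.17) and RpL37A (0.09 ± 0.16) the most positive. The arrays of S2-NFull/S2 replicate 1, which bear a shared title, are in no comparison here.

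In S2/S2-NDCterm against S2/S2 (n = 2 and 3) limma called 0 of 35, against 0.165% of probe sets, and 1, RpL24-like, had an unadjusted p below 0.05, against 10.7% of all genes. The median was -0.02 with 8 of 35 above 0, against -0.05 over all genes with 39% above 0. Leaving out single samples moved the members' median between -0.08 and 0.06, so its sign is not settled. The bright intervals reached from 0.741-fold to 1.29-fold. RpL24-like read 2052 and 2221 in S2/S2-NDCterm, against 3463, 2705 and 2422 in S2/S2. Samples of the mixes were apart, but the change of -0.40 ± 0.17 did not pass (limma adjusted p = 0.492). RpL37-2, the other member apart downward, read 17.5 and 19.5 in S2/S2-NDCterm, against 30.1, 24.7 and 25.4 in S2/S2, a change of -0.22 ± 0.21 (15.1% of probe sets were apart in this direction). Upward 0 members were apart, against 8.22% of probe sets. RpS19b gave -0.68 ± 0.36, RpL34a 0.13 ± 0.12, RpL40 0.09 ± 0.13 and RpL3 0.06 ± 0.14.

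RpL24-like was thus below its S2/S2 mean of 2863 ± 539 in each other mix. It read 1829 in S2-NFull/S2-Dl, 1742 in S2-NFull/S2-DlDI and 2102 in S2-NFull/S2. Its S2-NDCterm/S2-Dl samples had 2071 and 2306, and its S2/S2-Dl samples 2705, 2479 and 1929. The S2/S2 samples are the same in all these comparisons, and none of the changes passed the test. RpL7-like, a relative of yeast Rlp7, another assembly factor of the large subunit, had 1 high sample in S2/S2: it read 6167, 3135 and 3830 there, against 4354, 3021 and 3339 in S2/S2-Dl, 3552 and 3585 in S2/S2-DlDI, 3692 and 3862 in S2/S2-NDCterm and 3310 in S2-NFull/S2.

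**Figure D3:**
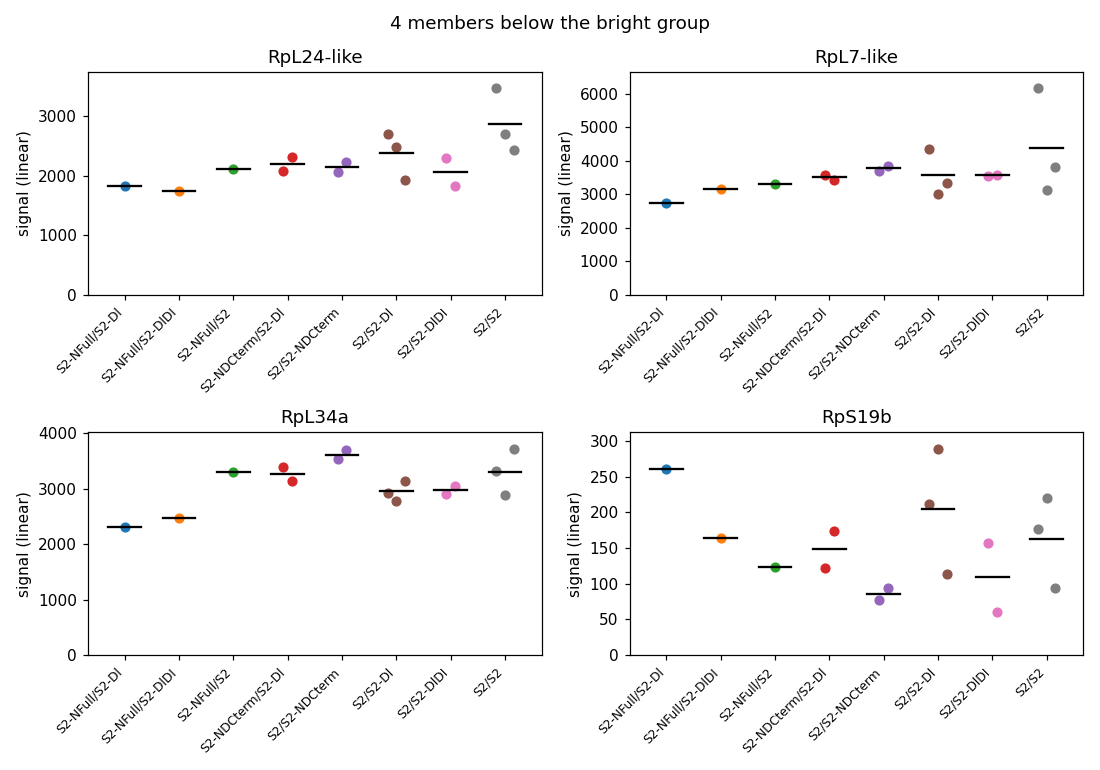
Signal (linear, as deposited) of RpL24-like, RpL7-like, RpL34a and RpS19b in the 8 mixes. Points are samples and black lines the mean of the mix. RpL24-like has its highest mean in S2/S2, at 2422 to 3463, RpL7-like has 1 S2/S2 sample at 6167, and RpL34a is lowest in S2-NFull/S2-Dl at 2305. RpS19b scatters between 60.4 and 289, and its S2/S2-Dl and S2/S2 samples overlap. Its means are 205 in S2/S2-Dl, 148 in S2-NDCterm/S2-Dl and 261 in S2-NFull/S2-Dl. Without S2-Dl they are 163 in S2/S2, 85.7 in S2/S2-NDCterm and 123 in S2-NFull/S2.

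Delta cells were next added to Notch cells. Between S2-NDCterm/S2-Dl and S2/S2-NDCterm, with n = 2 each, limma called 0 of 35 members, against 0.49% of probe sets, and 0 had an unadjusted p below 0.05, against 8.75% of all genes. The median change was -0.06, with 7 of 35 above 0, against 0.01 over all genes, and the bright intervals reached from 0.671-fold to 1.36-fold. Samples were apart downward for 20 members (20.7% of probe sets) and upward for 5 (23.4%). After quantile normalization the median of the 35 was -0.03 with 12 above 0, and 7 of the 26 bright members were above 0, against 2 of 26 on the signals as deposited. RpL3 (-0.25 ± 0.15), RpL17 (-0.22 ± 0.14) and RpL29 (-0.21 ± 0.15) were the most negative, and RpS19b (0.60 ± 0.40), RpL37-2 (0.32 ± 0.23) and RpS28-like (0.24 ± 0.16) the most positive. RpS18 was the 1 bright member apart upward, at 14023 and 14178 in S2-NDCterm/S2-Dl, against 13441 and 12731 in S2/S2-NDCterm.

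The full Notch line with Delta cells gave the widest values, from 1 sample on each side. For S2-NFull/S2-Dl minus S2-NFull/S2 limma called 0 of 35 members, against 0.293% of probe sets, and 2 had an unadjusted p below 0.05, RpL34a and RpL22-like, against 10.2% of all genes. The median was -0.08, with 8 of 35 above 0, against 0.03 over all genes, and the bright intervals reached from 0.543-fold to 1.51-fold. RpL34a read 2305 in S2-NFull/S2-Dl, against 3295 in S2-NFull/S2, a log2 change of -0.51 ± 0.19 (limma adjusted p = 0.415). RpL22-like read 31.3, against 2.22, a change of 0.89 ± 0.24 on the log2(signal + 32) scale (limma adjusted p = 0.230), with both signals under the offset. RpL3 (7848 against 10509, -0.42 ± 0.21) and RpS7 (8252 against 10750.3, -0.38 ± 0.21) were the next most negative, and RpS19b (261 against 123, 0.91 ± 0.56) and RpS28a (45.7 against 17.5, 0.65 ± 0.44) were the other most positive members.

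Other probe sets of RpL3 and RpS7 did not share that sign. Those of RpL3, dim beside the one used, with means of 349 and 33.4 over the 15 samples, gave 0.12 ± 0.26 and 0.67 ± 0.40, and that of RpS7, at 32.1, gave 0.79 ± 0.39. The probe sets of RpS30 at 10607 and 206 gave -0.02 ± 0.22 and -0.87 ± 0.32. RpS29 has a pair of bright probe sets, at 11535 and 10362, which gave 0.00 ± 0.21 and -0.04 ± 0.21, and a dim one at 3.63, which gave -0.06 ± 0.18. No adjusted p of these was below 0.05 by limma.

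In S2-NFull/S2-DlDI against S2-NFull/S2, again 1 sample each, limma called 0 of 35 members (0.0213% of probe sets) and 1, RpL34a, had an unadjusted p below 0.05, against 3.69% of all genes. RpL34a read 2467 in S2-NFull/S2-DlDI, against 3295 in S2-NFull/S2 (-0.41 ± 0.19). The median was -0.06 with 6 of 35 above 0, and the bright intervals reached from 0.613-fold to 1.41-fold. RpL24-like (-0.27 ± 0.27) and RpS7 (-0.25 ± 0.21) were the next most negative, and RpL22-like (0.46 ± 0.24), RpS19b (0.34 ± 0.56) and RpL10Aa (0.18 ± 0.17) the most positive. The comparison shares its S2-NFull/S2 sample with the one before.

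Whether Delta cells moved the members more beside Notch cells than beside plain S2 cells was tested with interaction terms. Limma called 0 of 35 in the NDCterm term (0.0107% of probe sets), with 0 unadjusted p below 0.05 (3.22% of all genes). It called 0 of 35 in the NFull term (0.0213%), with 1 unadjusted p below 0.05 (4.59% of all genes), that of RpL22-like (0.69 ± 0.28, adjusted p = 0.909). Both terms hold the same S2/S2-Dl and S2/S2 samples. In the NDCterm term the members' median was -0.10, against 0.05 over all genes; it was -0.02 after quantile normalization and -0.18 to -0.04 when single samples were left out. In the NFull term it was -0.09, against 0.06 over all genes; it was -0.03 after quantile normalization and -0.17 to -0.03 when single samples were left out. RpL3 was the most negative in both, at -0.25 ± 0.20 (NDCterm) and -0.42 ± 0.25 (NFull), followed by RpL29 (-0.22 ± 0.20) and RpS15 (-0.21 ± 0.19) in the NDCterm term and by RpL34a (-0.35 ± 0.22) and RpS7 (-0.32 ± 0.24) in the NFull term. The most positive in the NDCterm term were RpL37-2 (0.38 ± 0.30), RpS19b (0.34 ± 0.51) and RpL24-like (0.30 ± 0.24). In the NFull term they were RpS28a (0.80 ± 0.51), RpL22-like and RpS19b (0.65 ± 0.65).

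Because whole samples shifted, each member was also set against the median bright member of its own sample, a choice made after the values were seen. On this scale RpS18 was 1.27 to 1.40 times the median bright member, with a median of 1.36, in the 6 samples with the S2-Dl line, against 1.13 to 1.19, with a median of 1.15, in the 9 samples without it. The groups do not overlap, across mixes with plain S2, NDCterm and NFull cells. It was the 1 member of 35 so placed upward, and 0 were downward; over all probe sets 0.852% were apart upward and 0.0959% downward. RpS29 came close, at 1.0413 to 1.1189 with the line and 0.9854 to 1.0417 without. Medians with the line lay above every sample without it for other members too, among them RpL15, RpS27A and RpL32. They lay below every such sample for RpL17 and RpL3. On the unscaled signal the groups overlapped for RpS18. These ratios compare brightness and not copies of mRNA.

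In single samples the ratio of RpS18 was 1.37 for S2-NFull/S2-Dl, 1.40 and 1.35 for S2-NDCterm/S2-Dl, and 1.34, 1.38 and 1.27 for S2/S2-Dl. Against these stood 1.13 for S2-NFull/S2-DlDI, 1.15 for S2-NFull/S2, 1.17 and 1.15 for S2/S2-NDCterm, 1.19 and 1.13 for S2/S2-DlDI, and 1.14, 1.18 and 1.14 for S2/S2. The truncated Delta line is with the lower samples among those compared. Left-out arrays labelled S2-NFull/S2-DlDI read 1.44 (Delta 12295) and 1.34 (Delta 11031), and array 2 of each of these titles 1.15. RpL32 gave 1.03 to 1.10 in the samples with S2-Dl and 1.01 to 1.07 in those without, which overlap.

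**Figure D4:**
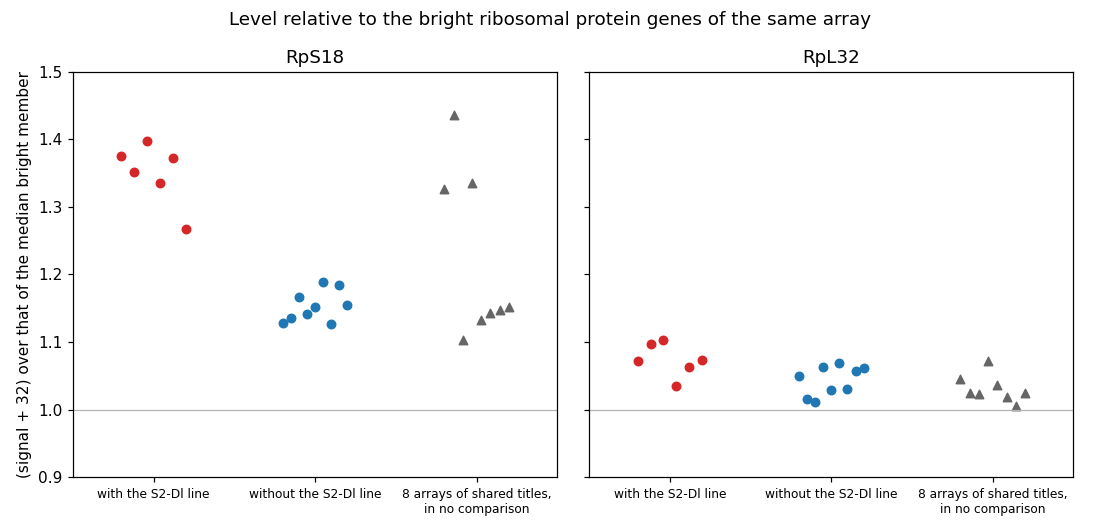
Level of RpS18 (left) and RpL32 (right), as signal plus 32 over that of the median bright ribosomal protein gene of the same sample or array. The ratio has no unit and its axis starts at 0.9. Circles are the 6 samples with the S2-Dl line and the 9 without, and triangles the 8 single arrays of shared titles that enter no comparison. Among the circles, RpS18 lies at 1.27 to 1.40 with the line and 1.13 to 1.19 without it, and RpL32 overlaps. The triangles of RpS18 run from 1.10 to 1.44.

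RpS18 still did not pass a test over all probe sets. With each sample centred on its median bright member, its log2 change was 0.20 ± 0.08 for S2/S2-Dl minus S2/S2 (limma adjusted p = 0.517), 0.24 ± 0.10 for S2-NDCterm/S2-Dl minus S2/S2-NDCterm (adjusted p = 0.541) and 0.25 ± 0.14 for S2-NFull/S2-Dl minus S2-NFull/S2 (adjusted p = 0.730). A sign of RNA integrity or labelling, the Gapdh 3'/5' signal ratio, was 1.46 (S2-NFull/S2-Dl), 1.58 and 1.57 (S2-NDCterm/S2-Dl) and 1.95, 1.74 and 2.82 (S2/S2-Dl) on the arrays with S2-Dl, against 1.87 to 3.13 on those without. The actin ratio was 1.80 to 2.75 with S2-Dl and 1.87 to 3.27 without. That of eIF-4a was 3.36 to 5.45 with S2-Dl and 3.30 to 6.80 without. The part of these ratios in the RpS18 values was not tested.

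The wider machinery of translation, in lists chosen with earlier results of these data known, was tested in the same fit. Of the ribosomal proteins outside the symbol rule, 4 of 5 were measured and 0 were called in any comparison: RpLP0, RpLP1 and RpLP2 of the stalk averaged 10805, 13510.0 and 11458 in S2/S2, and Rack1, a scaffold on the small subunit, 6963. In S2/S2-Dl against S2/S2 their changes were -0.02 to 0.08. Of 5 measured elongation factors (eEF1alpha2, eEF1gamma, eEF1delta, eEF5 and eEFSec), 23 initiation factors and 16 genes of ribosome biogenesis, limma called 0 in each comparison. At an unadjusted p below 0.05 there were 0 of 5, 4 of 23 and 3 of 16 of them in S2/S2-Dl against S2/S2, where 13.5% of all genes had such a p. In S2/S2-DlDI against S2/S2 there were 0 of 5, 7 of 23 and 1 of 16, against 8.59% of all genes. That is the highest count of initiation factors in any comparison. Their changes there had a median of -0.17 with 6 of 23 above 0, against -0.05 over all genes. No comparison had more than 1.31% of all probe sets called.

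In S2/S2-Dl against S2/S2, 1 of 14 measured genes of growth control and transcription of ribosomal genes was called, against 1.31% of all probe sets. That gene was Trf2, and no other of the 14 was called in any comparison. It read 188, 204 and 142 in S2/S2-Dl, against 72.7, 88.6 and 93.0 in S2/S2. All 3 samples with Delta cells lie above all 3 without. Trf2 rose by 0.84 ± 0.15 on the log2 scale (limma adjusted p = 0.0160).

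Beside NDCterm cells, Trf2 also rose with Delta cells: it read 209 and 250.3 in S2-NDCterm/S2-Dl, against 80.2 and 111 in S2/S2-NDCterm (1.04 ± 0.19, limma adjusted p = 0.0271). It read 259 in S2-NFull/S2-Dl, against 96.4 in S2-NFull/S2 (1.18 ± 0.27, limma adjusted p = 0.123, not called). With truncated Delta it read 122 and 109 in S2/S2-DlDI (0.34 ± 0.17 against S2/S2, limma adjusted p = 0.673). In S2/S2-Dl against S2/S2-DlDI directly, 0 of the 14 genes, Trf2 included, were called, and their largest change was 0.50. The rise of Trf2 is thus not shown to differ between full and truncated Delta. In the comparisons where Trf2 was called, the members' medians were 0.03 and -0.06, with 0 members called in either. Single cell type markers were called in S2/S2-Dl against S2/S2 too, where 1.31% of all probe sets were called. Of 11 plasmatocyte markers 1, the phagocytic receptor crq, was called higher in S2/S2-Dl against S2/S2. The plasmatocyte list as a whole had 8 of 11 changes above 0 and a median of 0.15, with 3 unadjusted p below 0.05. Its summed signal was 4194 to 4659.0 in S2/S2-Dl and 2926 to 4624 in S2/S2. Of 10 epidermis markers 1, the regulator ovo (1.61 ± 0.17), was called higher there, and the sums were 186 to 258 in S2/S2-Dl and 90.8 to 149 in S2/S2. The mean of ovo in S2/S2 was 29.3, under the offset of 32. The epidermis list as a whole had 2 of 10 changes above 0 and a median of -0.08. Without Delta cells, ovo also rose in S2-NFull/S2 against S2/S2 (1.51 ± 0.25). No marker of either list was listed at 0. Their part in the Trf2 and ribosomal protein values was not tested.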

How the data were processed

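Per the deposited tables, each of the 24 arrays had 1 linear intensity per probe set, and the authors had scaled them: the mean without the outer 2% was the same on every array. The sources used here name no software. Of 18952 probe sets, 183 controls were left out. Values became log2(signal + 32) without a filter.

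In 5 cases 2 arrays bore one title. A pair was averaged only if it differed less than separate replicates, which 1 pair did. The other 8 arrays were left out.

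With limma 3.58.1 (R 4.3.3), 1 linear model with a mean trend covered 8 mixes and 10 contrasts (15 samples, 7 residual degrees of freedom). Calls took a Benjamini-Hochberg adjusted p below 0.05 over 18769 probe sets. The procedure was tested on simulated data for S2/S2-Dl against S2/S2, with independent noise and added changes larger than any member's. That test does not cover shifts shared by a sample or mixes with 1 sample. Nothing says that replicates are separate cultures, so p-values measure only the spread between these samples. The number of arrays limits the precision.

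Replicate numbers paired S2/S2-Dl with S2/S2: residuals of same-numbered samples correlated at 0.51, 0.27 and 0.38. They did so at 0.20 and 0.29 for S2/S2-DlDI with S2/S2, and at 0.21 and 0.23 for S2/S2-Dl with S2/S2-DlDI. In the comparisons of S2/S2-NDCterm the values were 0.03 to 0.07. The main model and its unadjusted p-values did not use this pairing.

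Members and lists were chosen with earlier results of these data known. Named were, per comparison, the 3 highest and 3 lowest changes, the 5 brightest and 5 dimmest members, paralogues, genes whose probe sets differ in sign, and called genes of the lists. Alternatives were quantile normalization, other offsets (8 and 128), a filter at 100, no mean trend, other treatments of shared titles, a replicate block, fits on the compared mixes only, leaving out samples, and, added after the data were seen, centring on the bright members. RefSeq (Release 6) gave symbols and chromosome arms.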

Additional observations from a re-analysis of the deposited data

Results flagged for a closer look

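An array outside every comparison stood above the samples in it. On array 1 of S2-NFull/S2 replicate 1, 1 of the arrays of a shared title, the median bright ribosomal protein gene had a signal of 13839.5, against 12778 in the highest S2/S2 sample. On array 2 of that title it was 10416. The labels do not say how the arrays of a title differ.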

How the results depend on the processing

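The count of called members was 0 in each of the 10 comparisons under all 144 alternative counts, the replicate block included. For the median change of the 35 members, 130 of 134 alternative values lay within 1 SD (0.11 on the log2 scale, between samples of a mix) of the main value. The 4 others all took array 1 of each shared title into the fit: 0.11 for S2-NFull/S2 against S2/S2, -0.23 for S2-NFull/S2-Dl minus S2-NFull/S2, -0.23 for S2-NFull/S2-DlDI against S2-NFull/S2, and -0.24 for the interaction of NFull with Delta. The cause was not tested. With replicate number as a block, the median for S2/S2-Dl against S2/S2 was 0.03, as it must be with all numbers on both sides; it was -0.08 (-0.12 without the block) for S2/S2-DlDI minus S2/S2, 0.10 (0.14) for S2/S2-Dl minus S2/S2-DlDI and 0.01 (-0.01) for S2-NFull/S2 minus S2/S2. The block changed no call. Leaving out single samples moved that median between -0.04 and 0.10, that for S2/S2-DlDI minus S2/S2 between -0.18 and -0.04, and that for S2/S2-Dl minus S2/S2-DlDI between 0.07 and 0.20. The sign of a median near 0 is therefore not settled: under quantile normalization it was -0.01 for S2/S2-Dl against S2/S2 and 0.01 for S2-NFull/S2 against S2/S2. Mixes with 1 sample allowed no such fit for that sample. Changes of members with signals near or under 32 depend on the offset.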

Other observations

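RpS18 was also read on the 8 arrays of shared titles that enter no comparison. Relative to the median bright member of the same array it was 1.33 on array 1 of S2-NDCterm/S2-Dl replicate 2, where Delta read 11382, and 1.13 on array 2, where Delta read 13.9. For S2-NFull/S2-DlDI replicate 1 it was 1.44 on array 1 (Delta 12295) and 1.15 on array 2 (Delta 156). For S2-NFull/S2-DlDI replicate 3 it was 1.34 on array 1 (Delta 11031) and 1.15 on array 2 (Delta 1.67). For S2-NFull/S2 replicate 1 it was 1.10 and 1.14 (Delta 6.60 and 18.4). No array was given another mix because of these values.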
